A study of Mus musculus with 4 samples.

Results

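Programmed cell death that breaks the cell membrane runs through a small set of proteins, and 8 mouse genes for them are described here in AML12 cells, an established hepatocyte line. In pyroptosis, inflammatory caspases cut gasdermin D, whose released fragment forms pores in the plasma membrane. In necroptosis, death receptors or nucleic acid sensors bring the kinases RIPK1 and RIPK3 together, RIPK3 phosphorylates the pseudokinase MLKL, and MLKL disrupts the membrane. Caspase-8 sits between the routes, since it starts death receptor apoptosis and restrains necroptosis by cutting the RIP kinases. Healthy hepatocytes are known for their sensitivity to death receptor signals and for little RIPK3.

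The genes were chosen by symbol, Casp1, Casp4, Casp12, Gsdmd, Casp8, Ripk1, Ripk3 and Mlkl, and all 8 were found among the 13422 genes listed. The choice was made with earlier results of these data known. All 8 also passed the filter of a mean of at least 1 CPM (reads scaled by the library size), which left 11298 genes to test. The study compared 2 libraries from cells given a GFP control plasmid, pCMV6-AC-GFP (Control 1 and Control 3), with 2 from cells given PAV-TBG-P2A-GFP-Chrna4, a plasmid for over-expression of Chrna4, a neuronal nicotinic receptor subunit gene (Chrna4 1 and Chrna4 2). All 4 came from the same line, which derives from CD-1 mouse liver, and from medium with dexamethasone, insulin and serum, which both groups share. The plasmid names carry different promoter abbreviations, TBG and CMV, so the insert and the backbone cannot be told apart. Nothing in the labels tells whether the replicates came from different cultures, and p-values therefore reflect only how far these samples differ, a spread that may be technical.

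The libraries held 31301396 to 32228360 reads on listed genes. Chrna4 itself received 1 and 3 reads in the controls and 2678 and 2290 in the Chrna4 libraries, as labelled. Replicates were closer than groups, with a median absolute log2 difference per gene of 0.104 for the control pair and 0.0702 for the Chrna4 pair, while pairs across the groups gave 0.139 to 0.148. Of 8 hepatocyte markers 5 were listed. Hnf4a was not called, at 231 and 248 CPM in the controls and 217 and 222 in the Chrna4 libraries. Alb was called lower, at 17.8 and 19.0 CPM in the controls and 7.93 and 8.51 in the Chrna4 libraries. Ttr was also called lower, at 58.2 and 48.3 CPM against 28.0 and 23.8, and Apoa1 and Serpina1a were under 1 CPM throughout. Of 5 biliary and progenitor markers 4 were listed and 3 were called lower, Krt19, Spp1 and Krt7. Sox9, the other listed one, was not called, at 137 and 140 CPM in the controls and 160 and 147 in the Chrna4 libraries. The listed markers summed to 1121 and 1199 CPM in the controls and 817 and 800 in the Chrna4 libraries. The part of these marker differences in the results below was not tested. Of 8 macrophage and leukocyte markers 3 were listed, with a summed level of 93.0 and 98.3 CPM in the controls and 96.5 and 101 in the Chrna4 libraries, nearly all of it from Cd14, and the pan-leukocyte gene Ptprc was at 0.247 CPM or less. Of 6 markers each, 1 lymphocyte, 1 stellate and 2 endothelial ones were listed, and each type's sum was at most 0.423 CPM in any library. In bulk RNA, fewer cells with a transcript and less of it per cell cannot be told apart.

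Of the 8 genes, 4 rose in the Chrna4 libraries and 0 fell. They were Casp4, Mlkl, Casp12 and Gsdmd, so the pore former of pyroptosis, the membrane effector of necroptosis and 2 caspases of the inflammatory cluster were called, while Casp1, Casp8, Ripk1 and Ripk3 were not. The background was 9.26% of all tested genes called higher and 6.66% called lower (limma-trend, adjusted p under 0.05). Of all called genes 58.2% were higher, against 40.8% when scaled by library totals, where the same 4 of the 8 were called higher. The median log2 change was 0.46 for the 8 genes and -0.0028 for all tested genes. Both Chrna4 libraries lay above both controls for 7 of the 8, against 28.7% of tested genes. Because of how the 8 were chosen, these counts and medians beside the background are descriptions only. Values below are deposited CPM, given as mean ± SD with n = 2 per group, folds are ratios of mean CPM, and log2 changes are differences of log2(CPM + 1), a scale that shrinks the changes of genes at low levels. An exact two-sided permutation test of 2 against 2 libraries cannot go below p = 0.333, so calls rest on limma-trend, fitted over all genes.

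**Figure D1:**
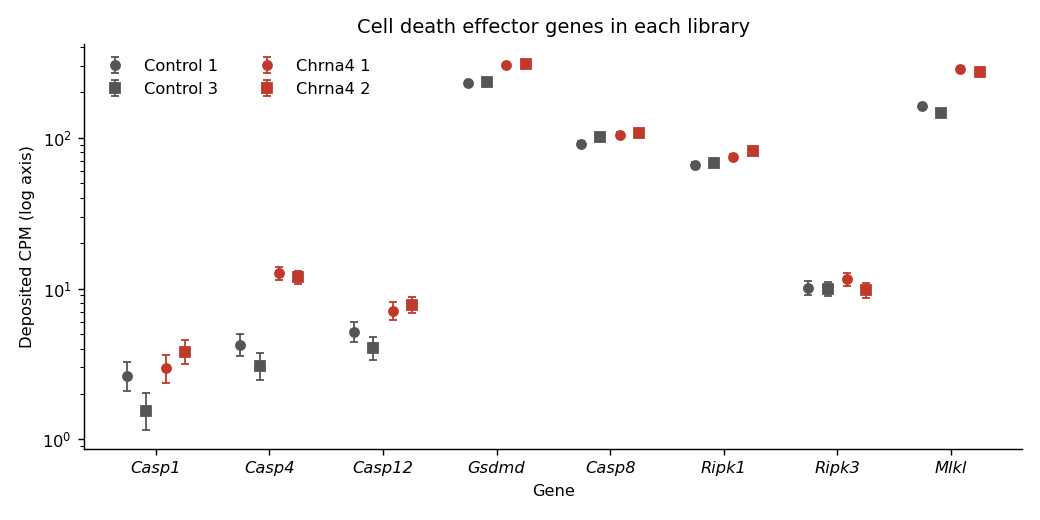
Deposited CPM on a log axis for each of the 8 genes in the 4 libraries; bars are exact 95% Poisson intervals and cover counting error only. Gsdmd and Mlkl are the highest in CPM, at 145 to 310 CPM, and the gap between the groups is widest for Casp4, at 3.06 and 4.25 CPM in the controls against 11.9 and 12.6 in the Chrna4 libraries.

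The inflammatory caspases come first. Casp4 encodes the mouse protein also known as caspase-11, which binds bacterial lipopolysaccharide in the cytosol and cuts gasdermin D without an inflammasome. It stood at 4.25 and 3.06 CPM in Control 1 and Control 3 and at 12.6 and 11.9 CPM in Chrna4 1 and Chrna4 2. Both Chrna4 libraries stood far above both controls, and the gap between the groups, 1.29 on the log2 scale, was wider than the range within the controls, 0.37, or within the Chrna4 pair, 0.08. The mean rose from 3.65 ± 0.842 to 12.3 ± 0.548 CPM, 3.35-fold (log2 1.52, SE 0.15, 95% interval 1.19 to 1.86, adjusted p = 3.36e-05 by limma). These values rest on 138, 99, 389 and 375 reads in the same order of libraries.

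Casp12, a caspase of the same subfamily that has been placed at the endoplasmic reticulum and whose function is debated, showed a smaller increase. It stood at 5.17 and 4.02 CPM in Control 1 and Control 3 and at 7.12 and 7.79 CPM in Chrna4 1 and Chrna4 2. The groups did not overlap, and Control 1 lay closer to the Chrna4 libraries than Control 3 did. The mean rose from 4.60 ± 0.818 to 7.45 ± 0.472 CPM, 1.62-fold (log2 0.60, SE 0.15, 95% interval 0.27 to 0.94, adjusted p = 0.0196 by limma). Without Chrna4 2 this call was lost (log2 0.54, adjusted p = 0.128 by limma). A fit that leaves out 1 library has 1 sample in that group, which is assumed to vary like the remaining pair, and without Control 1 or Control 3 calls over all tested genes rose from 1798 to 2916 and 3006.

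Casp1, the caspase that inflammasomes activate to mature interleukins 1 beta and 18, was the lowest of the 8 in CPM, at 2.62 and 1.54 CPM in Control 1 and Control 3 and at 2.96 and 3.80 CPM in Chrna4 1 and Chrna4 2. Both Chrna4 libraries were the higher ones, but Control 1 was only 0.13 below Chrna4 1 on the log2 scale, while the controls differed by 0.51. The means were 2.08 ± 0.759 and 3.38 ± 0.594 CPM, a fold of 1.62, the same as that of Casp12. The log2 difference of 0.52 (95% interval 0.06 to 0.99, adjusted p = 0.122 by limma) did not pass. The reads numbered 85, 50, 91 and 120. Their exact 95% counting intervals overlapped between Control 1 (2.09 to 3.24 CPM) and Chrna4 1 (2.38 to 3.63 CPM), so at this depth these libraries cannot be separated. The log2 difference was 0.78 without Control 1 (adjusted p = 0.00698 by limma, with the spread from the Chrna4 pair alone) and 0.27 without Control 3 (adjusted p = 0.424 by limma).

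The 3 caspase genes lie side by side on chromosome 9 of GRCm38, all on the plus strand: Casp1 at 5298517 to 5307265, Casp4 at 5308828 to 5336783 and Casp12 at 5345430 to 5373032. The gap is 1563 bases between Casp1 and Casp4 and 8647 bases between Casp4 and Casp12, and no other listed gene with an annotated position lies within 100 kb of any of them. Although they are paralogs, none of the 50-base words in their annotated transcripts occurs in a transcript of another annotated gene. Within each library the per-length level of Casp4 divided by that of Casp12 was 0.850 and 0.788 in Control 1 and Control 3 and was 1.84 and 1.58 in Chrna4 1 and Chrna4 2. Casp4 was thus the lower of the pair in both controls and the higher in both Chrna4 libraries. The same ratio for Casp4 over Casp1 was 0.655, 0.799, 1.72 and 1.26. In CPM, Casp4 was above Casp1 in all 4 libraries. Its lower place in the controls thus rests on the merged exon lengths, 3710 bases for Casp4 and 1497 for Casp1. These ratios were chosen after the values were seen and have no test beyond the permutation limit above.

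**Figure D2:**
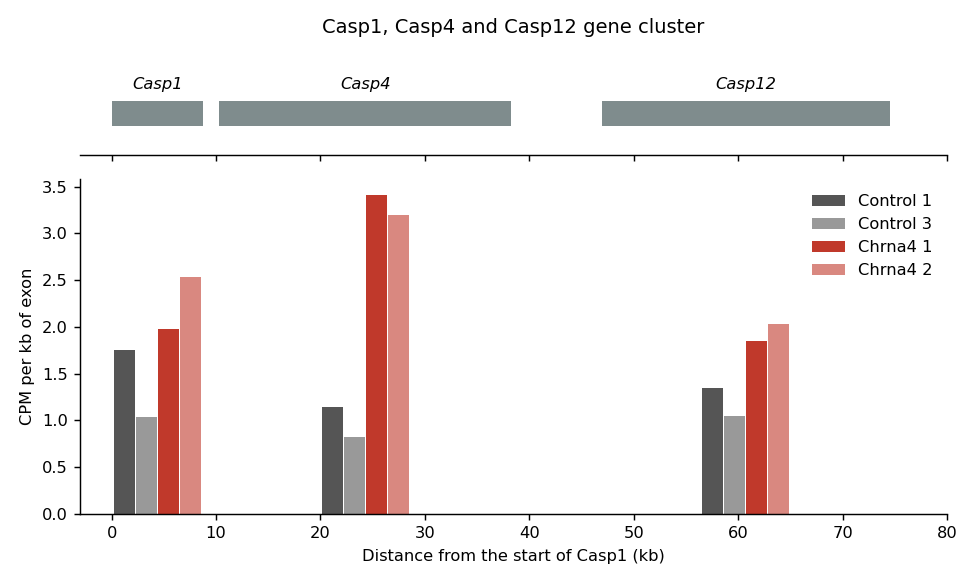
Top, the Casp1, Casp4 and Casp12 genes drawn to scale by distance from the start of Casp1 in kb. Below, the level of each in the 4 libraries as CPM per kb of merged exon, where Casp4 reaches 3.20 and 3.41 in the Chrna4 libraries against 0.824 and 1.15 in the controls.

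The start regions of the cluster genes are shown because the genes are neighbours. The fold of Casp4 was 3.35, while those of Casp1 and Casp12 were both 1.62. They are RefSeq windows of GRCm38.p6 from 250 bases before to 50 after the annotated start, in the direction of the gene. Capitals mark matches to any of 3 motifs searched on both strands: an ISRE-type motif bound by interferon-activated factors (GAAA, any 2 bases, GAAA), a GAS-type motif bound by STAT factors (TTC, any 3 bases, GAA) and a kappaB-type motif bound by NF-kB (GGG, any 5 bases, CC). The windows lie at chr9:5298267-5298566 for Casp1, chr9:5308599-5308898 for Casp4 and chr9:5345226-5345525 for Casp12, plus strand.
Casp1: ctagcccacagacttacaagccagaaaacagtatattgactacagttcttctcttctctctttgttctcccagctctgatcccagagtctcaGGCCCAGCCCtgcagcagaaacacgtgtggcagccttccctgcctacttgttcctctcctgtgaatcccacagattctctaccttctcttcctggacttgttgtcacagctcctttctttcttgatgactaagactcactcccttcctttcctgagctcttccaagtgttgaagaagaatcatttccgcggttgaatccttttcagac
Casp4: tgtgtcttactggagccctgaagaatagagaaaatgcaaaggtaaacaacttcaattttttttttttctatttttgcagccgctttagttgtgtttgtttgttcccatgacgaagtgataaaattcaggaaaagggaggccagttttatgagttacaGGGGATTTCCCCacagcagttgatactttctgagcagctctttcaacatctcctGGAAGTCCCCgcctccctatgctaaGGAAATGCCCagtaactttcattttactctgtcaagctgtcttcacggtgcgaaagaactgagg
Casp12: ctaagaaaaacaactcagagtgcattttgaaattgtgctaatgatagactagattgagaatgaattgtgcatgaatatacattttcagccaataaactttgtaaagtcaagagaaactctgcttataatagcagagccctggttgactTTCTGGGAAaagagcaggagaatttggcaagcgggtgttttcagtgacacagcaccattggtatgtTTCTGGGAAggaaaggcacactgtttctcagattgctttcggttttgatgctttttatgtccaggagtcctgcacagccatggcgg

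The Casp4 window printed above held 5 kappaB-type matches, of which 3 overlap in the run GGGGATTTCCCC, whose match begins 93 bases before the start. Casp4 has a second RefSeq window, at chr9:5308610-5308909, which held the same 5 matches. There the run begins 104 bases before the start. The Casp1 window held 1 kappaB-type match, and the Casp12 window held 0 of these and 2 GAS-type matches with the same letters, TTCTGGGAA, beginning 102 and 36 bases before the start. None of the 3 windows held the ISRE-type letters. The kappaB-type letters are frequent and occur in 50.8% of 32851 mouse windows of this length, the GAS-type in 8.30% and the ISRE-type in 3.44%. A match is a description of the letters and shows no binding.

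Gasdermin D is the shared substrate of caspase-1 and caspase-11. Gsdmd, at chromosome 15, 75862327 to 75867408 on the plus strand, stood at 231 and 236 CPM in Control 1 and Control 3 and at 302 and 310 CPM in Chrna4 1 and Chrna4 2. The replicates lay close together in each group, and the gap between the groups, 0.36 on the log2 scale, was far wider than either range, 0.03 and 0.04. The mean rose from 233 ± 3.29 to 306 ± 5.73 CPM, 1.31-fold (log2 0.39, SE 0.05, 95% interval 0.27 to 0.51, adjusted p = 0.000424 by limma). The fold of Gsdmd was thus the smallest of the 4 called genes, at the highest level of the 8 per kb of exon. Of its 7 listed neighbours within 100 kb, including Zc3h3 (log2 0.20, adjusted p = 0.188 by limma) and Eef1d (log2 -0.03, adjusted p = 0.739 by limma), 6 were tested and 0 were called.

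Mlkl, whose product permeabilises the membrane at the end of necroptosis, lies at chromosome 8, 111311797 to 111338177 on the minus strand. It stood at 163 and 145 CPM in Control 1 and Control 3 and at 286 and 275 CPM in Chrna4 1 and Chrna4 2. Each Chrna4 library was well above each control, with a gap of 0.75 on the log2 scale against ranges of 0.16 and 0.06 within the groups. The mean rose from 154 ± 12.4 to 281 ± 7.92 CPM, 1.82-fold (log2 0.86, SE 0.07, 95% interval 0.72 to 1.01, adjusted p = 3.71e-06 by limma). By p it ranked 78 of 11298 tested genes, ahead of Casp4 at 184. Its listed neighbours within 100 kb, Rfwd3 (log2 0.22, adjusted p = 0.0594 by limma) and Glg1 (log2 -0.04, adjusted p = 0.714 by limma), were not called.

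Ripk3, the kinase that acts on MLKL, lies at chromosome 14, 55784995 to 55788865 on the minus strand and was the only one of the 8 whose groups overlapped. It stood at 10.1 and 9.92 CPM in Control 1 and Control 3 and at 11.5 and 9.75 CPM in Chrna4 1 and Chrna4 2, so the lowest and the highest value both came from the Chrna4 pair. The means were 9.99 ± 0.108 and 10.6 ± 1.24 CPM (log2 0.08, adjusted p = 0.732 by limma), with a 95% interval of the log2 difference from -0.19 to 0.35. Per kb of exon, the level of Mlkl was 16.1 and 14.6 times that of Ripk3 in Control 1 and Control 3 and 24.8 and 28.1 times in Chrna4 1 and Chrna4 2, so the ratio was larger in both Chrna4 libraries. Of the 6 tested listed genes within 100 kb of Ripk3, 2 fell, beside 6.66% of all tested genes. They were Dhrs1 (log2 -0.47, adjusted p = 0.00285 by limma) and Cbln3 (log2 -1.19, adjusted p = 0.00211 by limma). Cbln3 stood at 2.68 and 3.00 CPM in Control 1 and Control 3 and at 0.520 and 0.855 in Chrna4 1 and Chrna4 2. It thus passed the filter of a mean of 1 CPM only through the controls.

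The windows of Mlkl and Ripk3, the effector that rose and the kinase whose groups overlapped, are printed for comparison, at chr8:111338156-111338455 and chr14:55788808-55789107 of GRCm38.p6, minus strand. Neither held any of the 3 motifs, so no letters are in capitals.
Mlkl: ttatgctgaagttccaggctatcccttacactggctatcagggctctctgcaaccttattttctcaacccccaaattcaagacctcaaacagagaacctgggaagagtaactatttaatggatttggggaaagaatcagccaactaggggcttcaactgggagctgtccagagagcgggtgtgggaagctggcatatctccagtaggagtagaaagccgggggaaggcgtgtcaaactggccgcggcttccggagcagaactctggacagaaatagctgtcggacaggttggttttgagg
Ripk3: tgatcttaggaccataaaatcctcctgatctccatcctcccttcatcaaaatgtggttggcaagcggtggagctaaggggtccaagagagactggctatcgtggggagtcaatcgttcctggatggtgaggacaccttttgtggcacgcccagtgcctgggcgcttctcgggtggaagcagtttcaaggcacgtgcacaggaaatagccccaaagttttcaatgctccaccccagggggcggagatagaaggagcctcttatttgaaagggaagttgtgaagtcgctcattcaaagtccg

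Ripk1, the scaffold kinase of death receptor complexes, lies at chromosome 13, 34002363 to 34037147 on the plus strand. It stood at 65.8 and 68.5 CPM in Control 1 and Control 3 and at 74.7 and 81.3 CPM in Chrna4 1 and Chrna4 2. The groups did not overlap, yet the gap of 0.12 on the log2 scale was about as wide as the range of the Chrna4 pair, also 0.12. The means of 67.1 ± 1.90 and 78.0 ± 4.70 CPM (log2 0.21, 95% interval 0.06 to 0.37, adjusted p = 0.0607 by limma) did not pass, while the authors' deposited table gives Ripk1 a log2 change of 0.22 with an adjusted p of 0.0410. With the spread from the Chrna4 pair alone, the adjusted p by limma was 0.0331 without Control 1 (log2 0.18) and 0.00342 without Control 3 (log2 0.24). With the spread from the control pair alone it was 0.122 without Chrna4 1 (log2 0.27) and 0.519 without Chrna4 2 (log2 0.15). An exon of Serpinb6a overlaps Ripk1 on the opposite strand, and since the sources used here do not give the strand setting of the counting, reads from the shared bases cannot be told apart. Bphl, 450 bases from Ripk1, fell (log2 -0.44, adjusted p = 0.0109 by limma), though not without Chrna4 2 (adjusted p = 0.10 by limma). An unlisted processed pseudogene, Gm17084, overlaps exons of Ripk1 on the same strand and shares 5.54% of the 50-base words of Ripk1. Ripk1 has 2 RefSeq windows, and the second, at chr13:34002624-34002923, held the 1 ISRE-type match among the 9 windows of the 7 genes with one, GAAATCGAAA; Gsdmd had no window and was not searched.

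Casp8, the initiator caspase of death receptor apoptosis, lies at chromosome 1, 58795374 to 58847503 on the plus strand. It stood at 91.3 and 101 CPM in Control 1 and Control 3 and at 105 and 108 CPM in Chrna4 1 and Chrna4 2. The Chrna4 libraries were the higher ones by a gap of 0.06 on the log2 scale, less than the 0.14 by which the controls differed. The means were 95.9 ± 6.53 and 106 ± 2.15 CPM (log2 0.15, 95% interval 0.00365 to 0.30, adjusted p = 0.160 by limma). Of its 50-base words 4.37% also occur in another annotated gene, Gm20257, so a part of its reads may be shared. The log2 difference was 0.22 without Control 3 (adjusted p = 0.00291 by limma, with the spread from the Chrna4 pair alone) and 0.08 without Control 1 (adjusted p = 0.365 by limma). Cflar, a catalytically inactive relative of caspase-8 that restrains it and lies 36490 bases away, rose from 94.1 and 96.5 CPM in the controls to 112 and 117 CPM (log2 0.26, adjusted p = 0.0133 by limma), a call lost without Chrna4 1 (adjusted p = 0.0776 by limma) and without Chrna4 2 (adjusted p = 0.215 by limma).

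**Figure D3:**
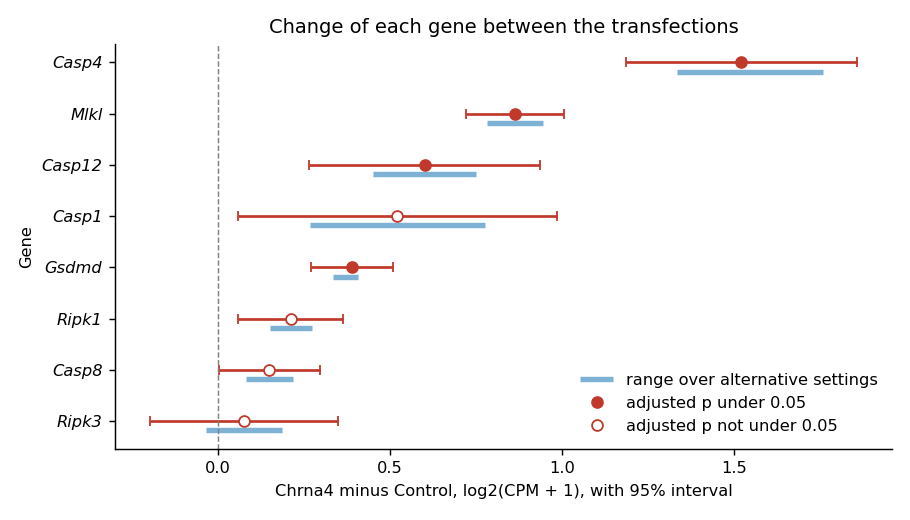
Log2 change of each gene, Chrna4 minus Control on the log2(CPM + 1) scale, with its 95% interval from limma-trend; blue bars span the values under the alternative settings, of which those fitted to reads add no pseudocount of 1. Casp4 is the largest at 1.52 and Mlkl the second at 0.86, and the interval of Ripk3 spans 0.

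Levels between the 8 genes were compared per kb of merged exon. In the controls the order of mean levels was Gsdmd at 98.2 ± 1.39 CPM per kb, Mlkl at 66.9 ± 5.39, Casp8 at 33.2 ± 2.26, Ripk1 at 8.04 ± 0.228 and Ripk3 at 4.36 ± 0.0469. Below them stood Casp1 at 1.39 ± 0.507, Casp12 at 1.20 ± 0.213 and Casp4 at 0.985 ± 0.227 CPM per kb, and the values of these 3 overlapped between genes. In the Chrna4 libraries Gsdmd stood at 129 ± 2.41 and Mlkl at 122 ± 3.44 CPM per kb, and Casp4 at 3.30 ± 0.148 led the cluster ahead of Casp1 at 2.26 ± 0.397 and Casp12 at 1.94 ± 0.123. The order of the upper 5 was the same in both groups. The values of Casp1 and Casp12 still overlapped there, from 1.98 to 2.54 and from 1.85 to 2.03 CPM per kb.

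The controls differed from each other in several of these genes. Control 1 was above Control 3 by 0.51 on the log2 scale for Casp1, 0.37 for Casp4, 0.30 for Casp12 and 0.16 for Mlkl, and below it by 0.03 for Gsdmd, 0.06 for Ripk1 and 0.14 for Casp8 (log2 differences of -0.03, -0.06 and -0.14). The change of Casp4 was 1.71 without Control 1 and 1.34 without Control 3, and that of Mlkl 0.95 and 0.78. The direction and the call of both held without either one. The labels give no batch, so none could be examined.

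Among genes averaging 5 CPM or more, the 5 whose profile over the 4 libraries lay nearest to the median profile of the 8 were Rad51ap1, 4930453N24Rik, Asah2, Pi4k2b and Cyb561d2. Their Euclidean distances on the centred log2(CPM + 1) scale were 0.0266 to 0.0636. All 5 had log2 changes between 0.40 and 0.46, which follows from picking them for their likeness to this profile. The likeness rests on 4 libraries.

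Around these 8, 8 lists of cell death genes with 127 entries were examined, of which 99 genes were listed and 91 tested. Of the 91, 27 rose and 3 fell, beside the background of 9.26% and 6.66% of tested genes. The lists were chosen with earlier results of these data known, so the counts are descriptions.

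Upstream of the RIP kinases, death receptors, their ligands and sensors that feed them were called higher in 5 of 8 tested genes and lower in 0, with a median log2 change of 0.36. Tnfsf10, which encodes the death ligand TRAIL, stood at 7.88 and 6.30 CPM in the controls and 32.8 and 36.8 in the Chrna4 libraries (log2 2.15, adjusted p = 4.98e-07 by limma). Tlr3, a receptor for double-stranded RNA, stood at 150 and 134 CPM in the controls and 306 and 308 in the Chrna4 libraries (log2 1.11, adjusted p = 5.21e-07 by limma). For both, the Chrna4 libraries lay above both controls by more than the spread within either group. The death receptor gene Fas rose from 18.4 ± 0.219 to 27.0 ± 1.58 CPM and the TNF receptor gene Tnfrsf1b from 40.5 ± 2.45 to 59.1 ± 0.929. Tnfrsf1a, the TNF receptor with a death domain, rose from 139 ± 3.21 to 160 ± 0.60 CPM (log2 0.19, adjusted p = 0.0407 by limma), a call lost without Chrna4 1 (adjusted p = 0.311 by limma), without Chrna4 2 (0.305), with DESeq2 (0.0537) and with library totals as the scaling (0.120).

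Adaptors, ubiquitin enzymes and brakes of the death complexes were called higher in 10 of 25 tested genes and lower in 0 (median log2 0.15). Zbp1, a sensor of Z-form nucleic acids that can engage RIPK3 directly, stood at 60.2 and 43.2 CPM in Control 1 and Control 3 and at 174 and 163 CPM in Chrna4 1 and Chrna4 2 (log2 1.71, adjusted p = 1.94e-06 by limma). It was high in both Chrna4 libraries, and the controls differed from each other as they did for Casp4. Also called higher were Tnfaip3, encoding the ubiquitin-editing enzyme A20, from 161 ± 24.0 to 257 ± 7.03 CPM, Birc3, an inhibitor of apoptosis and ubiquitin ligase, from 18.2 ± 0.435 to 27.8 ± 1.86, and Rnf31, the catalytic subunit of the linear ubiquitin ligase, from 104 ± 3.32 to 150 ± 1.31. Optn, a ubiquitin-binding adaptor, rose from 220 ± 3.24 to 297 ± 3.85 CPM. The adaptor Fadd, which links caspase-8 to the receptors, stood at 18.6 and 19.5 CPM against 22.6 and 21.8 (adjusted p = 0.163 by limma; chosen after its values were seen). The count of called genes was 5 without Chrna4 1 and 6 without Chrna4 2.

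Of 9 tested inflammasome sensors and adaptors 0 rose and 1 fell, beside the background of 9.26% and 6.66%, and their median log2 change was 0.13. So few genes cannot set these counts apart from the background. With a minimum of 5 CPM only 5 of them were tested, with 0 called higher and 1 lower. The gene that fell was Nek7, a kinase that binds NLRP3, from 162 ± 2.19 to 130 ± 4.19 CPM (log2 -0.31, adjusted p = 0.00377 by limma), a call lost without Chrna4 1 (adjusted p = 0.0899 by limma). The helicase genes Dhx9 and Dhx15 stood at 343 ± 32.7 and 268 ± 5.80 CPM in the controls and at 343 ± 23.0 and 283 ± 5.58 in the Chrna4 libraries. Pycard, which encodes the adaptor ASC that joins sensors to caspase-1, was at 0.123, 0.154, 0.0975 and 0 CPM, and Nlrp3 at no more than 0.228 CPM in any library (both chosen after their values were seen). Aim2, a DNA sensor, stood at 0.647 and 1.27 CPM in the controls and 1.92 and 0.918 in the Chrna4 libraries, so its groups overlapped (adjusted p = 0.510 by limma; also chosen after its values were seen).

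In the interleukin 1 and 18 system, 2 of 6 tested genes rose and 0 fell, and both encode soluble antagonists. Il18bp, the interleukin 18 binding protein, stood at 12.7 and 10.6 CPM in the controls and 42.4 and 36.8 in the Chrna4 libraries (log2 1.68, adjusted p = 1.55e-06 by limma), and Il1rn, the interleukin 1 receptor antagonist, rose from 22.9 ± 0.381 to 44.1 ± 5.95 CPM (log2 0.91, adjusted p = 5.54e-05 by limma). The cytokine gene Il18 itself stood at 1.39 and 1.58 CPM against 3.45 and 1.96 (adjusted p = 0.124 by limma; chosen after its values were seen). Il1b was not among the genes listed and could not be examined.

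Of 5 other caspases tested, 2 rose and 0 fell. Among those that rose, Casp2, a caspase outside the inflammatory group, went from 62.5 ± 1.90 to 89.5 ± 5.01 CPM (log2 0.51, adjusted p = 0.000334 by limma). Neither of 2 other pore or rupture genes tested was called: Dfna5, which encodes gasdermin E, stood at 11.8 ± 1.85 and 11.1 ± 0.902 CPM, and Ninj1, which ruptures the membrane after pore formation, at 73.7 ± 0.199 and 69.8 ± 0.158 CPM (adjusted p = 0.773 and 0.464 by limma).

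Among necroptosis accessory genes, 3 of 16 tested rose and 0 fell (median log2 0.06). They were the ubiquitin ligase gene Peli1, from 82.9 ± 1.77 to 128 ± 0.535 CPM, the receptor kinase gene Axl, from 1097 ± 47.9 to 1498 ± 41.5 CPM, and the ESCRT-III gene Chmp4b, of the machinery that sheds damaged membrane, from 168 ± 11.7 to 200 ± 1.45 CPM. Chmp4b lost its call without Chrna4 1 (adjusted p = 0.166 by limma), without Chrna4 2 (0.144) and with library totals (0.0514). In the mitochondrial route of apoptosis, 5 of 20 tested genes of the Bcl-2 family and apoptosome rose and 2 fell (median log2 0.03). The pore-forming Bak1 rose from 101 ± 1.12 to 130 ± 2.45 CPM and Bid, which caspase-8 cuts to engage mitochondria, from 221 ± 5.60 to 289 ± 5.60, while the BH3-only gene Bmf fell from 26.3 ± 0.301 to 16.7 ± 1.29. Bbc3, encoding the BH3-only protein PUMA, rose from 50.6 ± 1.74 to 62.9 ± 0.866 CPM and Endog, a mitochondrial nuclease gene, from 5.21 ± 0.686 to 7.95 ± 0.395. Leaving out Chrna4 1 ended both calls (adjusted p = 0.107 and 0.0713 by limma), as did leaving out Chrna4 2 (0.0758 and 0.170), and that of Endog also ended without Control 3 (0.0644) and with DESeq2 (0.0513).

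**Figure D4:**
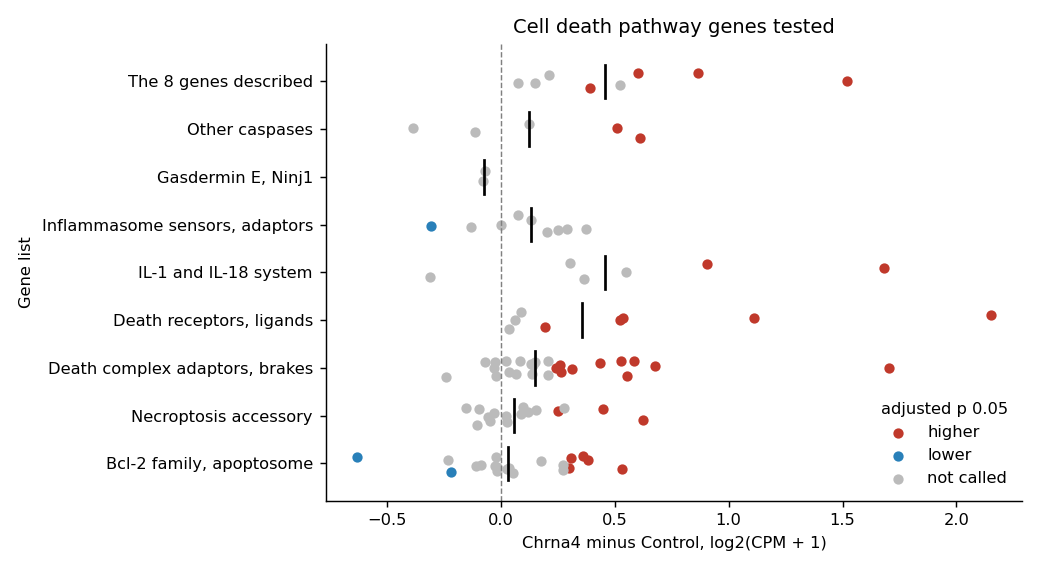
Log2 change, Chrna4 minus Control, of every tested gene in the 8 described and in each pathway list; black ticks are medians and colours show the limma-trend call at an adjusted p of 0.05. Death receptors, their ligands and sensors that feed them have a median of 0.36 with 5 of 8 called higher, beside 9.26% of all tested genes. Inflammasome sensors and adaptors have a median of 0.13 with 0 of 9 called higher, a list too small to set 0 apart from that 9.26%.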

How the data were processed

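RNA from 4 polyA-selected Illumina libraries was compared, per the labels' protocols. TopHat2, HTSeq and mm10/GRCm38 are named, without versions or settings, in the submitters' processing notes. The authors deposited 1 table of 13422 genes with a per-library signal, namely CPM computed on scaled library sizes. It also holds, per the file headers, a log2 fold change of control over Chrna4, whose sign is reversed here, and p-values of the authors' own comparison, made with a tool not given in the sources used here. In each column 100% of values were whole multiples of 1 read within 0.01 reads, so reads were recovered.

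Groups were compared by limma-trend, from limma 3.58.1 under R 4.3.3, applied to log2(CPM + 1) of the 11298 genes averaging 1 CPM or more, adjusted over all of them by Benjamini-Hochberg, with a threshold of 0.05, 2 residual and 9.55 prior degrees of freedom. Exon lengths and positions came from GENCODE M21 (GRCm38), and promoter windows, found for 7 of the 8 genes, from RefSeq (GRCm38.p6).

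The 8 genes and the lists were chosen with earlier results of these data known. Besides the 8 genes, each list names up to 5 called genes of smallest adjusted p, or with fewer than 2 called up to 2 of highest level, and genes within 100 kb and nearest profiles are named. Some genes that this rule names are not reported here. Alternatives changed the scaling (RLE, library totals), the filter (none, or 5 CPM), the pseudocount (0.1) and the threshold (0.01), left out each library, or fitted the recovered reads with edgeR 4.0.16, DESeq2 1.42.0 or limma-voom. Counting intervals cover counting error only.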

Additional observations from a re-analysis of the deposited data

How the results depend on the processing

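Of 103 values of the 8 genes under the alternatives, 96 kept their direction and side of the threshold. Casp4, Mlkl and Gsdmd were called under every alternative run, with log2 changes from 1.34 to 1.76, 0.78 to 0.95 and 0.34 to 0.41. Casp12 ranged from 0.45 to 0.75 with each library left out. It was not called without Chrna4 2, nor at a threshold of 0.01 (log2 0.60, adjusted p = 0.0196 by limma). Leaving out each library in turn, Casp1 ranged from 0.27 to 0.78, Casp8 from 0.0815 to 0.22, Ripk1 from 0.15 to 0.27 and Ripk3 from -0.0325 to 0.19, with the negative value without Chrna4 1 (adjusted p = 0.948 by limma). At a minimum of 5 CPM Casp1 was not tested.

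With each library left out, calls over all tested genes ranged from 928 to 3006, against 1798 and against 963 at a threshold of 0.01, and called genes among the 8 from 3 to 6. The ranges of called genes were 2 to 4 for other caspases, 1 to 2 for inflammasome genes, 5 to 13 for death complex genes, 2 to 6 for necroptosis accessory genes and 3 to 8 for the Bcl-2 family. These ranges join both directions. In some of these fits inflammasome genes had calls higher, while other caspases, death complex genes and necroptosis accessory genes had calls lower. With library totals 1 of the other caspases and 1 of the necroptosis accessory genes were called lower. The Bcl-2 family had 4 called with DESeq2 and 3 at a threshold of 0.01. With library totals the Bcl-2 family median was -0.02. Without Control 1 the median of the gasdermin and rupture genes was 0.00. The cause of these shifts was not tested. Depth sets counting intervals that overlap between Control 1 and Chrna4 1 for Casp1. No paired analysis was possible because the groups share only replicate number 1.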
